A study of Danio rerio with 14 samples.

Results

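The livers of zebrafish that carried both HBx and Src were compared with the livers of fish that carried only HBx or only Src. The comparison rested on 8 of the 14 arrays of the series, 4 from HBx,Src(p53-) fish against 2 from HBx(p53-) and 2 from Src(p53-) fish, chosen by genotype and diet with no use of the measured values. Fish of every transgenic line were p53 mutants, so the p53 mutation was shared by all 8 arrays and is not what the comparison measured. HBx and Src were both driven by fabp10a, a promoter active in hepatocytes. Feeding began at an age of 3 months and lasted 8 weeks. Normal diet fish (NOR) received 0.5 mL of Artemia 1 time a day, and overfed fish (DIO) received 2 mL of it 3 times a day, which is 12 times as much. HBx,Src(p53-) had 2 arrays under each diet, written NOR 1, NOR 2, DIO 1 and DIO 2, and each single transgene line had 1 array under each diet. The high fat arrays of the single lines (FAT, 2 arrays) and the 4 WT arrays of the AB strain were left out of the test, since no fish with both transgenes was fed the high fat diet on an array. By the legends of the study each array stood for 1 fish, and the sex of these fish was not given in the labels. The p-values therefore measure the spread between single fish of mixed genotype within the single side, together with technical spread.

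HBx is a regulatory protein of hepatitis B virus that binds host proteins, among them the DNA damage binding protein DDB1 and the Ragulator subunit LAMTOR5, and it is tied to liver cancer in chronic infection. Src is a tyrosine kinase that relays signals from growth factor receptors and cell adhesion to the MAP kinase, focal adhesion and STAT pathways. Loss of p53 removes a brake on the cell cycle after DNA damage. The liver itself makes blood proteins, clotting factors, cholesterol and glucose, and divides little in the adult.

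The values are log2 levels, so a difference of 1 is a change of 2-fold. Differences are given as HBx,Src(p53-) minus the single lines, with diet as a term, and each value after ± is the standard error that limma gave the difference. Genes were called at an adjusted p under 0.05 over 21124 genes. The 14 arrays correlated with each other at 0.924 to 0.968 across genes, their medians were 3.01 to 3.27, and the 4 HBx,Src(p53-) arrays had the highest medians. Within HBx,Src(p53-), NOR 1 and NOR 2 lay over 2-fold apart in 2999 genes, against 1575 genes for DIO 1 and DIO 2.

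As a check of the labels, src stood at 5.03, 4.91, 4.23 and 4.90 on the 4 HBx,Src(p53-) arrays in the order NOR 1, NOR 2, DIO 1 and DIO 2. It stood at 4.94 and 6.01 on the NOR and DIO arrays of Src(p53-) and at 4.59 and 3.75 on those of HBx(p53-). DIO 1 of HBx,Src(p53-) lay below the HBx(p53-) normal diet array, so src did not separate carriers from non-carriers on every array. HBx is not analysed here. Of 14 hepatocyte markers, 5 were higher and 9 lower, with a median of -0.06, and fabp10a itself, the gene whose promoter drove the transgenes, was +0.02. Hepatocyte genes were abundant on every array, with a mean of the 14 markers between 11.73 and 11.91 in the single lines and between 11.60 and 11.82 with both transgenes.

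Markers of other tissues were unequal between the arrays. The mean level of 8 germ cell markers was 1.64 to 1.80 on the 4 single line arrays and 3.48, 2.06, 3.4 and 2.84 on NOR 1, NOR 2, DIO 1 and DIO 2. The egg coat genes zp2.1 (+3.75 ± 0.58) and zp3 (+2.23 ± 0.53), the oocyte organizer buc (+1.55 ± 0.42) and the germ cell RNA-binding protein dazl (+1.59 ± 0.49) had unadjusted p under 0.05, while ddx4 (+0.37), piwil1 (-0.03), sycp1 (+0.35) and sycp3 (-0.06) did not. Over all genes 8.07% were higher at that p. The mean of 16 exocrine pancreas markers was 5.75 to 7.07 in HBx,Src(p53-), 6.90 and 5.99 in HBx(p53-) and 4.38 and 5.73 in Src(p53-), and 14 of the 16 were higher, with a median of +0.67. The part of either tissue in the results below was not tested beyond refits with the marker mean as a covariate. The germ cell mean did not overlap between the sides, so side and marker mean are not cleanly separated in that refit. In bulk liver, fewer cells of a type cannot be told apart from less RNA per cell.

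The arrays also differed by gene span, the length of a gene on the chromosome. Over 8335 genes with a mean level of at least 4, the median change was +0.30 in the quintile of genes with the shortest spans (median 4.81 kb) and -0.12 in the quintile with the longest (84.5 kb). On each array the mean level of the shortest quintile minus that of the longest was 1.11 and 1.03 on DIO 1 and DIO 2, 0.674 and 0.465 on NOR 1 and NOR 2, 0.29 to 0.388 on the single line arrays and 0.32 to 0.468 in WT. The overfed HBx,Src(p53-) arrays therefore stood apart from the other 12 in this respect. The part of gene span in the results below was not tested beyond list medians taken after the median of genes of like span and level was subtracted. Taken in this way the median of the hepatocyte markers was -0.23 in place of -0.06, and such values are given beside the plain medians of some other lists. The comparisons within a diet and the gene families described at the end were not adjusted for span.

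**Figure D1:**
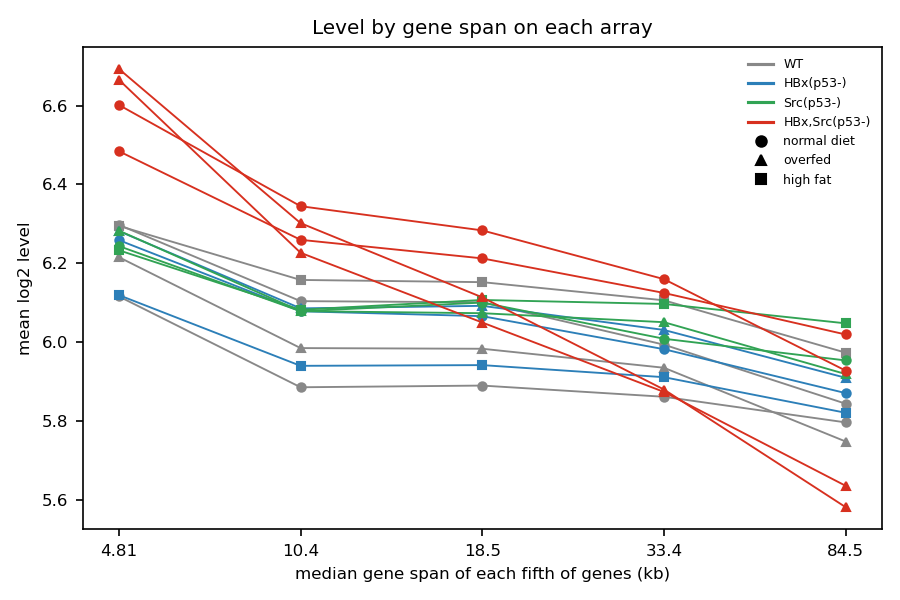
Mean log2 level (vertical axis) of 5 equal groups of genes ordered by gene span, with the median span of each in kb on the horizontal axis, and 1 line per array coloured by genotype with the marker giving the diet. The overfed HBx,Src(p53-) arrays fall most steeply, by 1.11 and 1.03 from the shortest to the longest quintile.

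Against the single lines, HBx,Src(p53-) livers differed in 2 called genes, 0.00947% of the genes tested. The uncharacterized gene si:ch211-194p6.12 rose and crp, a pentraxin named for the acute phase C-reactive protein, fell. At an unadjusted p under 0.05, 1704 genes were higher (8.07%) and 792 lower (3.75%). This split depended on scaling, with 1226 higher and 1307 lower after another quantile normalization and 993 higher and 2031 lower after centring each array on its median. The median change over all genes was +0.02, -0.03 and -0.14 under these 3 scalings. Every HBx,Src(p53-) array lay above every single line array for 829 genes (3.92%) and below for 480 (2.27%). Leaving out HBx,Src(p53-) NOR 2 alone raised the count of called genes from 2 to 186, of which 167 were higher and 19 lower. The share of all genes at an unadjusted p under 0.05 also moved between refits. In either direction 2496 of 21124 genes passed in the main fit. Without NOR 2 it was 2885, and with the germ cell marker mean as a covariate 1487. List counts from these refits below are to be read beside those numbers.

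The gene si:ch211-194p6.12 stood at 2.67 and 2.29 on the NOR and DIO arrays of HBx(p53-) and at 2.32 and 2.83 on those of Src(p53-). On the HBx,Src(p53-) arrays it stood at 7.08, 6.57, 6.45 and 7.26. The groups did not overlap, and the change was +4.31 ± 0.24 (limma adjusted p = 0.00211), with a second probe set of the gene also higher (+2.43). The 4 WT arrays, outside the test, lay at 5.87 to 8.29 and the 2 high fat arrays of the single lines at 2.73 and 2.15, so HBx,Src(p53-) resembled WT and the single lines were low. The call did not hold with the germ cell marker mean as a covariate (+4.22, adjusted p = 0.185).

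The crp gene stood at 9.88 and 9.67 in HBx(p53-) and at 10.83 and 11.40 in Src(p53-), against 4.78, 4.82, 5.41 and 6.57 in HBx,Src(p53-). The change was -5.05 ± 0.46 (limma adjusted p = 0.0425), with no overlap. Outside the test the level was low on the HBx(p53-) high fat array (4.11) and on WT normal 2 (5.02), and 9.72 to 11.63 on the other 4 arrays. A low crp level was therefore found outside HBx,Src(p53-) as well. The call was lost in 12 of the alternatives, among them without HBx(p53-) NOR (adjusted p = 0.157), without HBx,Src(p53-) DIO 1 (0.158) and with a fit to all 14 arrays (0.172), and a probe set of the gene that was not used was -1.44 and overlapped between the sides. Levels within this family are uncertain, because RNA of similar family members can reach the same probes.

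Of the other genes of the family, crp1 to crp7, some were lower and some higher. The gene crp1 was -2.81 ± 0.83, with every HBx,Src(p53-) array (3.41, 3.30, 3.64 and 4.75) below the single lines (8.27 and 8.01 in HBx(p53-), 5.13 and 4.95 in Src(p53-)). The gene crp2 was -2.27 ± 0.76, and NOR 2, at 4.83, lay far below the other 3 HBx,Src(p53-) arrays, at 8.62 to 8.97. In the opposite direction crp4 was +2.27 ± 0.48, at 5.52 and 5.37 under normal diet and 7.18 and 6.89 under overfeeding, against 3.48 to 4.94 in the single lines. The changes of crp3, crp6 and crp7 were +0.16, -0.12 and +0.20, and that of crp5 was -1.24 ± 0.30. None of these 7 genes passed the adjusted threshold in limma.

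Beyond the 2 called genes, 39 genes had an adjusted p of 0.05 to 0.10, of which 36 were higher. The lowest of these belonged to pcna, the sliding clamp of DNA replication, at +1.98 ± 0.21 (limma adjusted p = 0.0824). Its level was 5.86, 5.69, 5.26 and 5.27 in HBx,Src(p53-), against 3.66 and 3.87 in HBx(p53-) and 3.46 and 3.15 in Src(p53-). All 4 arrays with both transgenes lay above all 4 with a single transgene, and WT normal 2 (4.92) lay between.

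A group of immune and signalling genes was among the 12 most positive. The gene cxcl8b.3, of the CXCL8 family of neutrophil-attracting chemokines, was +2.26 ± 0.27, with 5.07, 5.39, 5.64 and 4.58 in HBx,Src(p53-) against 2.47 to 3.10 in the single lines. The gene cishb, a feedback inhibitor of cytokine signalling through STAT5, was +1.37 ± 0.17, with 5.54, 5.23, 5.82 and 5.50 against 3.96 to 4.32. The lysosomal protease cathepsin S gene ctss2.1 was +2.61 ± 0.34, and the lectin gene itln3 was +2.29 ± 0.29, although itln3 reached 11.00 on the overfed WT array. On the probe set used all 4 were without overlap, where 3.92% of all genes lay apart in this direction. The choice by moderated t on the same arrays favours such genes. Another probe set of itln3 (+1.24) overlapped, while another of ctss2.1 (+1.75) did not. Each of the 4 had a limma adjusted p of 0.0999.

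The genes si:dkeyp-46h3.2 and dop1b followed the germ cell markers over the arrays. The level of si:dkeyp-46h3.2 was 7.93, 4.86, 7.47 and 6.88 in HBx,Src(p53-), 1.37 to 1.70 in the single lines and 5.43 on WT normal 2. That of dop1b, of a family that acts in membrane traffic, was 7.66, 4.76, 7.38 and 6.24, against 1.42 to 1.95, with 5.13 on WT normal 2. In both genes NOR 2 was the lowest of the HBx,Src(p53-) arrays, as it was for the germ cell mean, and WT normal 2 had the highest germ cell mean outside HBx,Src(p53-), 2.30. The remaining 4 of the most positive genes were LOC793479 (+2.98 ± 0.39), the calcium-binding protein gene chp2 (+2.5 ± 0.33), the ribonuclease gene rnasekb (+2.47 ± 0.34) and the keratin gene krt4 (+1.38 ± 0.18). For krt4 the other probe sets were +0.39, +0.16 and +0.81 and overlapped between the sides.

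The 12 most negative genes, crp apart, held regulators of transcription and chromatin. The histone demethylase family gene jmjd1cb was -1.72 ± 0.25, with 6.12, 6.83, 6.08 and 6.97 in HBx,Src(p53-) against 8.04 to 8.50 in the single lines. The histone methyltransferase gene kmt2bb was -1.05 ± 0.17, the retinoic acid receptor gene raraa -1.28 ± 0.23, the RNA-binding protein gene ewsr1b -1.23 ± 0.20, ATXN7L1 -1.21 ± 0.19 and the clock repressor gene per2 -1.29 ± 0.21. None passed the adjusted threshold. On the probe set used none overlapped between the sides, where 2.27% of all genes lay apart in this direction. The choice by moderated t on the same arrays favours such genes. Another probe set of per2 (-0.36) overlapped, as did kmt2bb probe sets with identical values (-0.64), while a further one of kmt2bb (-0.73) did not.

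Genes of metabolism and adhesion made up the rest of that group. The iron exporter ferroportin, slc40a1, was -2.29 ± 0.36, with 6.75, 7.36, 7.53 and 8.05 in HBx,Src(p53-) against 9.82 and 10.60 in HBx(p53-) and 9.40 and 9.01 in Src(p53-). In WT it stood at 6.31 and 5.79 under normal diet, 9.53 in the overfed and 10.51 in the high fat fish, so the normal diet WT level was not above that of HBx,Src(p53-). The cytochrome P450 reductase gene porb was -0.94 ± 0.15, the acyltransferase gene agpat3 of phospholipid and triglyceride synthesis -0.91 ± 0.15, the receptor phosphatase gene ptprfb -1.08 ± 0.16 and pdlim5b -1.06 ± 0.18.

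**Figure D2:**
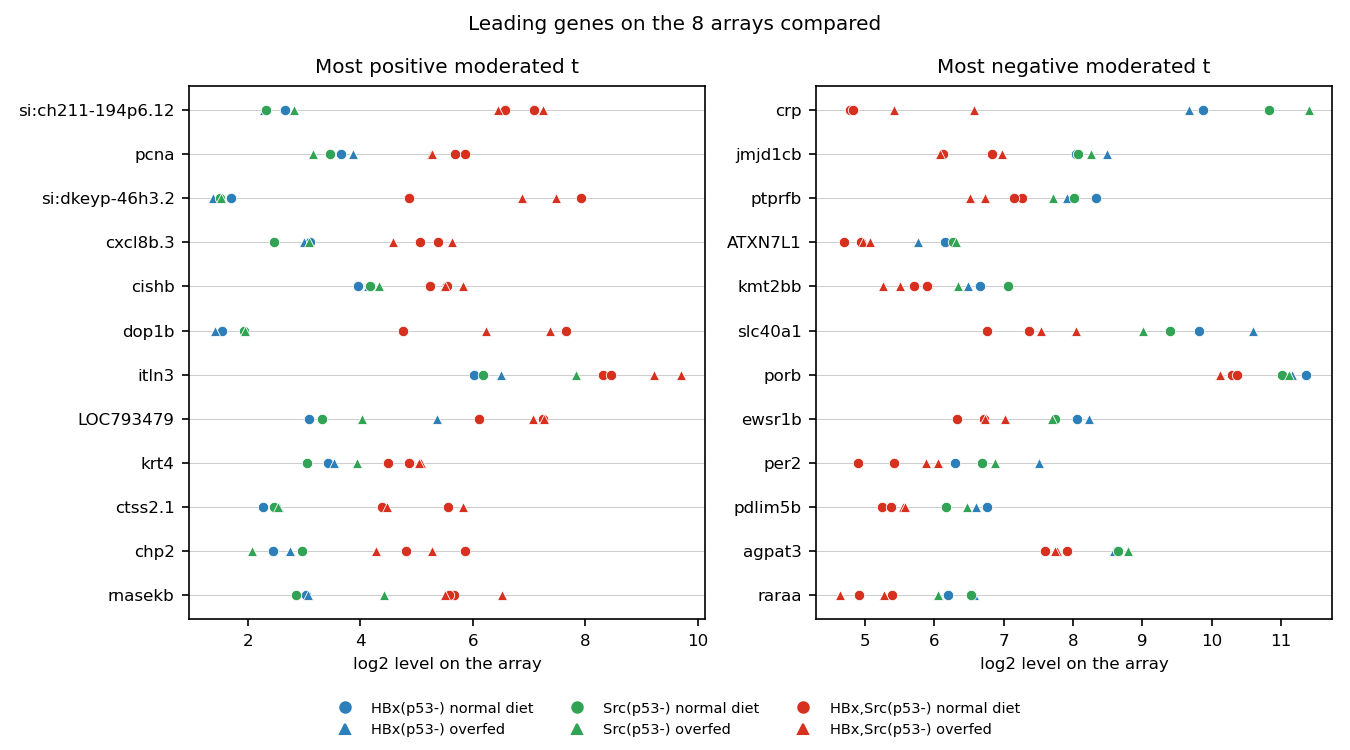
Log2 level on each of the 8 arrays (horizontal axis) of the 12 genes with the most positive and the 12 with the most negative moderated t, 1 point per array with colour giving the genotype and shape the diet. On the probe set used for each of the 24 genes, the 4 HBx,Src(p53-) arrays (red) lie to 1 side of the 4 single line arrays. The choice by moderated t on these arrays favours this. Only 2 of the genes, si:ch211-194p6.12 and crp, passed the adjusted threshold.

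The gene lists were described by how many members were higher or lower and by their median, beside the same over all genes, of which 11164 of 21124 were higher with a median of +0.02. The cell cycle and DNA replication list stood out by count. Of its 53 measured members 46 were higher, with a median of +0.55, and 21 had an unadjusted p under 0.05, all higher, where 8.07% of all genes did. For 14 members every HBx,Src(p53-) array lay above every single line array, as it did for 3.92% of all genes. The mean of the 53 genes was 2.29 and 2.31 in HBx(p53-) and 2.48 and 2.35 in Src(p53-), against 3.36, 2.86, 3.04 and 2.73 in HBx,Src(p53-). Most members were dim. Over the 8 arrays 44 of the 53 had a mean level below that of the median gene, and the list mean lay below the array's median on 7 of the 8 arrays, NOR 1 of HBx,Src(p53-) being the exception. No member passed the adjusted threshold, as in every list below except crp in the acute phase list.

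Members of all stages of the cycle took part. At the origin of replication, the licensing inhibitor gmnn was +1.15, the helicase subunits mcm4 and mcm5 +0.98 and +1.03, and the loader cdt1 +0.54. At the fork, the flap nuclease fen1 was +1.01 and the ligase lig1 +1.13. Of the enzymes that make deoxynucleotides, the ribonucleotide reductase subunit rrm1 was +1.68 ± 0.36 (5.23, 5.69, 4.38 and 4.04 against 2.53 to 4.03), the thymidylate synthase tyms +1.25 ± 0.27 (3.41, 4.12, 2.78 and 2.61 against 1.69 to 2.26) and the dUTPase dut +0.82 ± 0.16. For rrm1 and tyms the normal diet arrays were the higher within HBx,Src(p53-), and neither overlapped with the single lines, although rrm1 on DIO 2 (4.04) was only just above the Src(p53-) normal diet array (4.03). For mitosis, the cyclin gene ccnb1 was +2.61 ± 0.57, ccna2 +1.80, ccnb2 +1.45 and the kinase plk1 +1.57.

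The cyclin gene ccnb1 differed in its pattern from pcna and rrm1, at 5.56, 2.59, 5.06 and 4.55 against 1.64 to 2.02, with NOR 2 lowest as for the germ cell markers. The G1 cyclin gene ccne1, was +1.28 ± 0.39, at 4.24, 2.5, 4.22 and 3.24 against 2.03 to 2.57, and overlapped. With the germ cell marker mean as a covariate the cell cycle list had 8 members higher and 1 lower at an unadjusted p under 0.05, with a median of +0.11. Without NOR 2 there were 24 higher, with a median of +0.57. The germ cell markers were higher on the same arrays, and their part in the list was not tested further. With the median of genes of like span and level subtracted, the median of the list was +0.52.

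Of 16 genes listed for HBx partner proteins and the complexes tied to them, 11 were higher, with a median of +0.40. At an unadjusted p under 0.05, 5 were higher, where 8.07% of all genes were. With the germ cell marker mean as a covariate 2 were, with a median of +0.24. Without NOR 2 there were 3 higher and 2 lower, with a median of +0.38. With the median of genes of like span and level subtracted, the median was +0.20. The Ragulator subunit lamtor5, first described as an HBx-interacting protein, was +1.86 ± 0.26, at 6.68, 6.45, 7.17 and 6.90 in HBx,Src(p53-), 4.60 and 4.61 in HBx(p53-) and 5.46 and 5.09 in Src(p53-). WT arrays lay between, at 5.80 to 6.29. The ubiquitin ligase subunit rbx1, part of the complexes built on DDB1, was +1.19 ± 0.30, with 6.88, 7.43, 7.48 and 7.60 against 5.58 to 6.79. Neither gene overlapped between the sides. Of the 16 genes 4 lay apart above and 0 below, where 3.92% and 2.27% of all genes did. The choice of named members by p on the same arrays favours such genes. The others were the SMC5/6 complex subunit nsmce1 (+0.84), the export receptor xpo1b (+1.38) and creb1a (+0.40).

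The Src and focal adhesion list and the p53 target list lay near the median of all genes, and the MAP kinase list lay below it. Of 27 Src and focal adhesion genes 15 were higher, with a median of +0.08. The focal adhesion kinase gene ptk2ab was +1.28 ± 0.44 and stat5b +0.49, while stat5a was -0.88 ± 0.22 (7.43, 8.12, 8.25 and 8.47 against 8.69 to 9.14). Of 29 MAP kinase feedback and immediate early genes 10 were higher (median -0.15, and -0.23 with genes of like span and level subtracted). Under overfeeding 25 of the 29 were lower (median -0.37), against 14 under normal diet (median +0.002). Over both diets fosab was -1.70 ± 0.55 and egr1 -0.88 ± 0.34, whereas mycb was +1.98 ± 0.82, at 10.31, 8.26, 5.35 and 8.83. The mycb level on DIO 1 lay within the single lines (5.03 to 8.05). Of 22 p53 target genes 14 were higher (median +0.11, and +0.01 with genes of like span and level subtracted), in fish that all lacked normal p53. The YAP targets (9 of 15 higher, median +0.04) and the Notch and Wnt targets (15 of 33, median -0.04) were near the median of all genes.

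Among 29 liver cancer and progenitor genes 20 were higher, with a median of +0.11 (+0.06 with genes of like span and level subtracted). At an unadjusted p under 0.05, 5 were higher and 1 lower, where 8.07% of all genes were higher and 3.75% lower. The annexin A2 partner s100a10b was +1.44 ± 0.30, with 7.44, 8.66, 8.15 and 8.94 against 6.68 to 7.10, and anxa2a itself was +1.30 ± 0.30, with 5.39, 5.92, 4.85 and 4.85 against 3.44 to 4.37. Both genes of this membrane-binding pair lay above the single lines on every array. They were the only 2 of the 29 members to do so, while 3 members lay below on every array. Over all genes 3.92% lay apart above and 2.27% below. The progenitor transcription factor gene sox4a was +0.79 ± 0.25. The list also held afp4, by name an antifreeze protein gene and not alpha-fetoprotein. It was -0.92 ± 0.25, with 7.22, 7.53, 6.39 and 7.02 against 7.78 to 8.26.

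Markers of the bile duct, of macrophages and of stromal cells were mostly higher, and those of lymphocytes were not. Of 8 bile duct markers 6 were higher (median +0.65). Those with an unadjusted p under 0.05 were krt4 on its brightest probe set, krt18b (+1.34 ± 0.37), anxa4 (+0.64) and tm4sf4 (+0.65). Over all genes 8.07% were higher at that p. The mean of the list was 7.36, 7.00, 6.84 and 7.50 against 6.20 to 7.08, so the groups overlapped. All 7 macrophage markers were higher (median +0.32), 2 of them at an unadjusted p under 0.05. They were led by the perforin-like gene mpeg1.1 at +1.28 ± 0.24 (5.78, 5.98, 5.96 and 6.48 against 4.44 to 5.17) and the MHC class II chaperone cd74b at +0.95 ± 0.26. The macrophage median was +0.75 against HBx(p53-), with 7 of 7 higher, and +0.15 against Src(p53-), with 5 of 7 higher. The mean of these markers was 5.14, 5.12, 5.62 and 5.24 against 4.19 to 5.30, so the groups overlapped. All 8 stellate and stromal markers were higher (median +0.29), and the collagen gene col1a1a was +1.25 ± 0.33. Inflammation genes did not move as a group, with 18 of 37 higher and a median of -0.03. Of these the cytokine gene il1b was +1.25 ± 0.35 and the flagellin receptor gene tlr5a -1.48 ± 0.37. Interferon response genes were higher in 23 of 33 (median +0.19, and +0.08 with genes of like span and level subtracted), endothelial markers in 3 of 6, lymphocyte markers in 2 of 7, red blood cell markers in 2 of 6, intestinal markers in 2 of 6, adipose markers in 3 of 5 and neutrophil markers in 4 of 5.

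Functions of the mature hepatocyte were lower in parts. Of 18 coagulation genes 14 were lower, with a median of -0.20 (-0.31 with genes of like span and level subtracted). The protein C gene proca (-1.10 ± 0.24, with 8.83 to 9.57 against 9.88 to 10.47), f7i (-1.09 ± 0.25) and prothrombin, f2 (-0.43 ± 0.18), had an unadjusted p under 0.05. Over all genes 3.75% were lower at that p. Acute phase and complement genes were evenly split, 15 of 30 higher. At an unadjusted p under 0.05, 5 were higher and 5 lower, where 8.07% of all genes were higher and 3.75% lower. Without NOR 2 there were 3 higher and 5 lower. The haem-binding hemopexin hpxa was -1.09 ± 0.28 and the fibrinogen chain fga -0.49 ± 0.17, while complement factor D, cfd, was +0.89 ± 0.19. The apolipoprotein B gene apobb.1 was -0.67 ± 0.21 and the xenobiotic receptor gene nr1i2 -1.30 ± 0.34. Bile acid and xenobiotic genes were higher in 13 of 33 (median -0.09), amino acid breakdown and urea cycle genes in 22 of 38 (median +0.04) and vitellogenin and oestrogen response genes in 8 of 15 (median +0.01), where zp2.5 (+4.84 ± 0.75) and zp3b (+2.98 ± 0.57) are egg coat genes.

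The fasting response and the circadian clock were mostly lower. Of 26 gluconeogenesis and fasting genes 17 were lower, with a median of -0.49, and 5 were lower at an unadjusted p under 0.05, where 3.75% of all genes were. The insulin receptor substrate irs1 was -1.73 ± 0.33, with 4.35, 5.61, 4.42 and 4.41 against 5.81 to 7.43. The gluconeogenic enzymes pck2 and g6pc1a.1 were -0.94 ± 0.23 and -1.38 ± 0.38, and the glucagon receptor gcgra was -1.11 ± 0.32. Of 34 clock genes 27 were lower, with a median of -0.48, and 6 were lower at an unadjusted p under 0.05, beside the same 3.75%. The nuclear receptor nr1d2b, a repressor of the clock, was -1.72 ± 0.34 (4.90, 5.54, 5.95 and 6.02 against 6.85 to 7.77), rorab was -0.85 ± 0.17, the output factor hlfa -0.89 ± 0.30 and per3 -1.19. The activators clocka (-0.15) and bmal1b (-0.42) had p above 0.05. Clock genes cycle over the day, and the hour of sampling was not given in the labels. NOR 2 held the lowest clock mean, 5.37 against 5.80 to 6.12 on the other HBx,Src(p53-) arrays and 6.21 to 6.47 in the single lines. Without NOR 2 the median of the fasting list was -0.09 and that of the clock list -0.23, while 6 fasting and 10 clock genes were lower at an unadjusted p under 0.05. With the germ cell marker mean as a covariate the medians were -0.72 and -0.98, with 2 fasting and 14 clock genes lower and 3 clock genes higher.

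**Figure D3:**
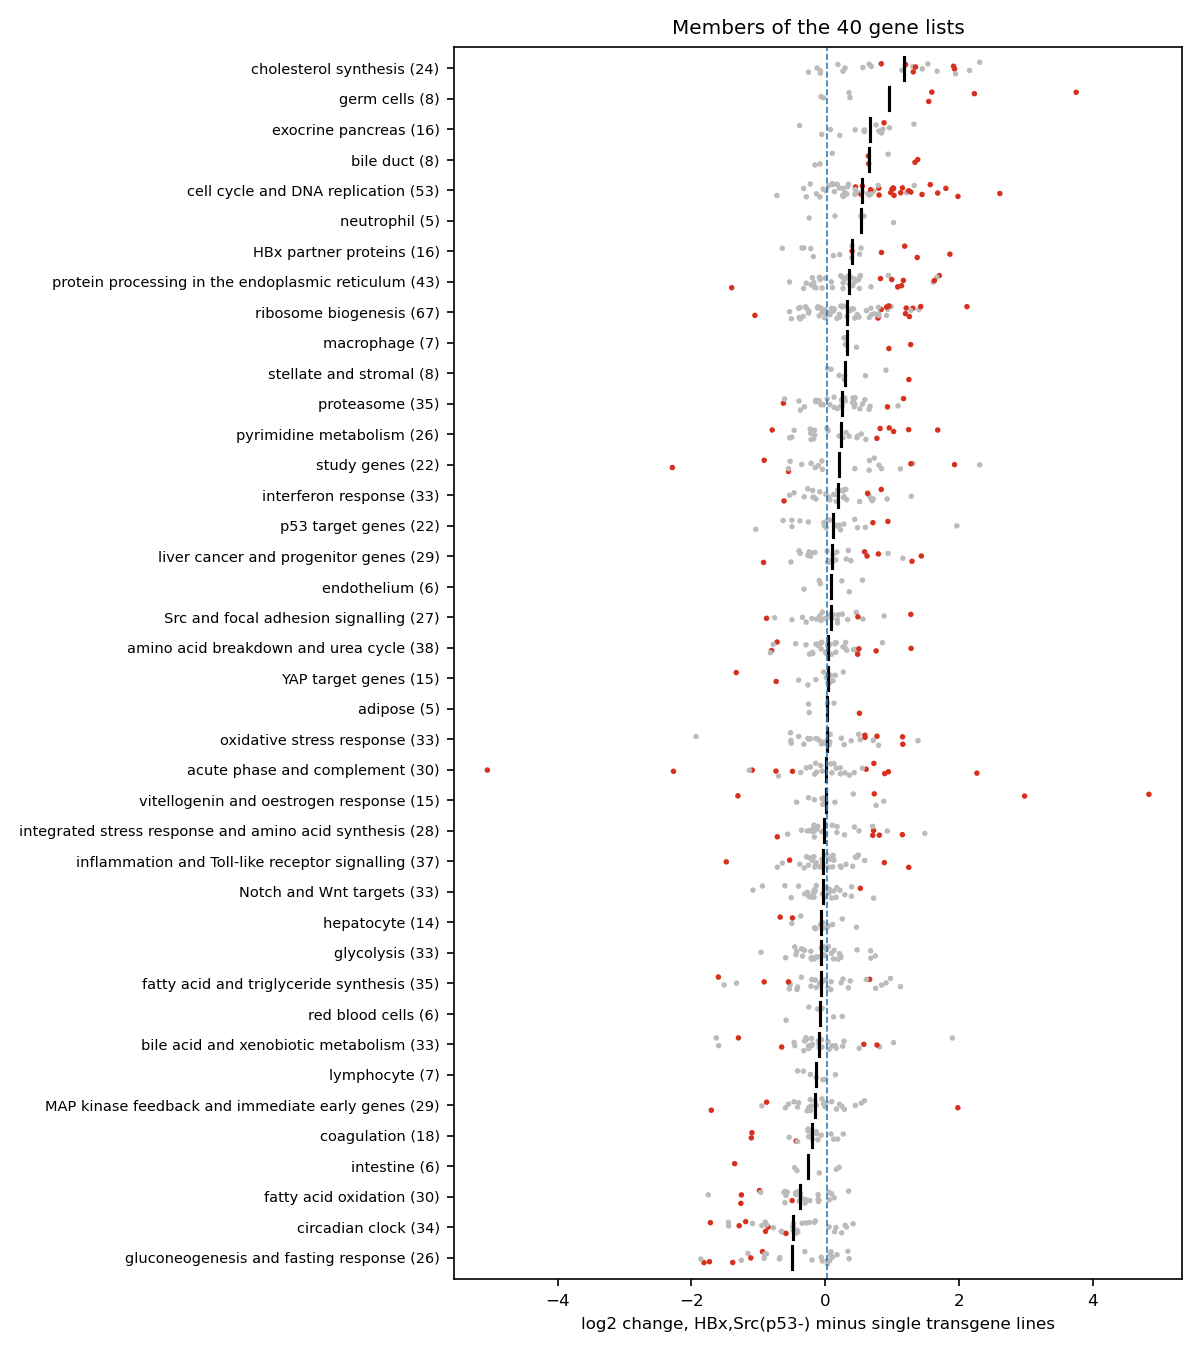
Log2 change of each measured member of the 40 gene lists (horizontal axis; HBx,Src(p53-) minus single lines), 1 row per list with its number of members, ordered by the list median (black bar). Red points have an unadjusted p under 0.05, and the dashed line is the median of all genes, +0.02. The cell cycle list holds 21 red points, all to the right, while the circadian clock list lies to the left, with a median of -0.48.

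Protein handling was higher in part. Of 43 genes of protein processing in the endoplasmic reticulum 31 were higher (median +0.36), 7 at an unadjusted p under 0.05 where 8.07% of all genes were. Among the 7 were the chaperone calr (+1.14 ± 0.34) and the degradation factors edem1 (+1.17 ± 0.28) and derl2 (+0.99 ± 0.26), while the oxidase ero1a was -1.40. The mean of the list was 8.67, 8.61, 7.93 and 7.46 against 7.46 to 8.45, so it overlapped. Its median was +0.52 against HBx(p53-) and +0.08 against Src(p53-). Proteasome genes were higher in 25 of 35 (median +0.25), and this rested on NOR 2. There 82.9% of the members lay above all single line arrays, against 0%, 11.4% and 8.57% on NOR 1, DIO 1 and DIO 2. Over all genes 5780 of 21124 did so on NOR 2 (27.4%), against 5743, 5198 and 4864 on NOR 1, DIO 1 and DIO 2. The proteasome shares on NOR 1, DIO 1 and DIO 2 were thus below those of all genes. Without NOR 2 the proteasome median was +0.03, with 1 member higher and 3 lower at an unadjusted p under 0.05, and that of the endoplasmic reticulum list was +0.21. With the median of genes of like span and level subtracted, the proteasome median was +0.07 and that of the endoplasmic reticulum list +0.23. Oxidative stress genes were higher in 19 of 33, of which glutathione reductase, gsr, was +1.16 ± 0.20 (4.58, 5.14, 4.06 and 4.32 against 3.18 to 3.46), and pyrimidine genes in 16 of 26 (median +0.23, and +0.10 with genes of like span and level subtracted). Glycolysis genes (13 of 33 higher, median -0.06) and fatty acid and triglyceride synthesis genes (15 of 35, median -0.07) were near the median of all genes. Integrated stress response genes were higher in 14 of 28 over both diets (median -0.02), but in 21 of 28 under normal diet (median +0.46) and in 10 of 28 under overfeeding (median -0.38). In the difference between the diets 22 of these 28 were lower (median -0.80), 3 of them at an unadjusted p under 0.05, where 4% of all genes were. In the synthesis list dgat1a, which makes triglyceride, was -1.60 ± 0.53, and the partner of the carbohydrate response factor, mlx, was +0.66 ± 0.21. A list of 22 lipid, cell cycle, ribosome and iron genes (study genes in the plot of the lists) that had in part been picked on these samples, and so not independent evidence, had 11 higher and 11 lower.

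The difference between HBx,Src(p53-) and the single lines was also taken within each diet. Under normal diet 0 genes were called by limma (0%), with 1301 higher (6.16%) and 477 lower (2.26%) at an unadjusted p under 0.05. Without NOR 2 only NOR 1 stands for HBx,Src(p53-) under this diet, so no count is given for that refit. The genes with the most positive moderated t were si:ch211-194p6.12 (+4.33), samm50l (+2.68), whose product sits in the mitochondrial outer membrane, the sterol desaturase sc5d (+2.56) and pcna (+2.21). The most negative were crp (-5.56), nr1d2b (-2.54), the fatty acid transporter slc27a6 (-4.54) and anapc4 (-2.54), a subunit of the mitotic ubiquitin ligase. Under overfeeding 1 gene was called (0.00473%), with 1357 higher (6.42%) and 950 lower (4.5%) at an unadjusted p under 0.05. The change of HBx,Src(p53-) with overfeeding minus that of the single lines gave 0 called genes in limma (0%), with 542 higher (2.57%) and 846 lower (4%).

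The gene called under overfeeding was zgc:63972, which rose by 4.75 ± 0.31 (limma adjusted p = 0.0272). It stood at 7.02 and 6.41 on DIO 1 and DIO 2, at 2.07 and 1.69 on NOR 1 and NOR 2, and at 1.49 to 2.20 on the 4 single line arrays. Only the overfed HBx,Src(p53-) arrays of these 8 were high. Outside the test the overfed WT array (4.88) and the HBx(p53-) high fat array (3.37) were above the single line range. WT normal 2 (2.68) and the Src(p53-) high fat array (2.30) were also above it, by less. The call was lost when any of the 4 single line arrays, or DIO 1 or DIO 2, was left out. The filter on genes with a mean under 4 removed zgc:63972 itself, so its call was not retested there. The count rose when NOR 1 or NOR 2 was left out. For this difference both are the same fit, as the array left in that group adds no spread. The same holds for leaving out either normal diet single line array, so these are not separate checks. The next gene by p was si:ch211-194p6.12 (+4.29, limma adjusted p = 0.0817), followed by arhgap20b (+2.62), churc1 (+1.91), the nuclear receptor coactivator NCOA1 (-2.30), the acetyltransferase kat2b (-2.10), zgc:101540 (-2.18) and the kinase nuak1b (-2.64), none called. In the difference between diets ino80e (+2.51), abitram (+2.11), mybpc1 (-3.02), mllt1b (-1.86) and si:dkey-111e8.5 (-2.98) stood beside zgc:63972 and samm50l, also not called.

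Cholesterol synthesis genes were higher in HBx,Src(p53-) under normal diet and level with the single lines under overfeeding. Of 24 genes 22 were higher under normal diet (median +1.96), 17 of them at an unadjusted p under 0.05 where 6.16% of all genes were. Under overfeeding 11 were higher (median -0.08). In the difference between the diets all 24 were lower, 13 at an unadjusted p under 0.05 where 4% of all genes were, and none passed the adjusted threshold. The list mean was 8.72 and 7.94 on NOR 1 and NOR 2, 5.29 and 5.03 on DIO 1 and DIO 2, 5.57 and 5.41 in HBx(p53-) and 6.88 and 5.08 in Src(p53-). The Src(p53-) normal diet array thus lay between.

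Early and late members of the pathway took part. The squalene epoxidase sqlea stood at 10.07 and 8.36 on NOR 1 and NOR 2 and at 2.36 and 2.38 on DIO 1 and DIO 2, against 2.73 and 2.61 in HBx(p53-) and 6.21 and 2.38 in Src(p53-). The difference between the diets was -4.87 ± 1.50. For the mevalonate decarboxylase mvda it was -3.99 ± 0.95 (9.13, 7.66, 3.02 and 3.41 in HBx,Src(p53-)), for the lanosterol synthase lss -3.30 ± 0.91 and for sc5d -2.5 ± 0.41. The rate-limiting reductase hmgcra stood at 11.80, 11.12, 7.09 and 4.98, with a difference of -2.80 ± 1.27, and overlapped with the single lines. The transcription factor srebf2 that drives the pathway was -0.12 in the comparison over both diets. That value does not show its change within either diet.

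Fatty acid oxidation genes were lower under overfeeding. Of 30 genes 27 were lower there (median -0.83), 14 at an unadjusted p under 0.05 where 4.5% of all genes were, against 13 lower under normal diet (median +0.04). The difference between the diets was lower for 8 at an unadjusted p under 0.05, where 4% of all genes were. Among the 8 were the carnitine acyltransferases crata (-2.51) and crot (-1.91), the trifunctional enzyme subunits hadhaa (-1.67) and hadhab (-1.43) and the lipid-sensing receptor pparaa (-1.71). The list mean was 7.13, 7.83, 7.14 and 7.19 in HBx,Src(p53-), with NOR 2 alone high, and 7.29 to 8.07 in the single lines. Over both diets 25 of 30 were lower (median -0.38), led by the dehydrogenase acadvl at -1.25 ± 0.25 (7.32, 7.92, 7.56 and 7.79 against 8.17 to 9.24), cpt1ab at -1.26 ± 0.51 and the thiolase acaa2 at -0.98 ± 0.32. With the germ cell marker mean as a covariate that median was +0.15. Without NOR 2 it was -0.56, and the number lower at an unadjusted p under 0.05 went from 4 to 11. In the main fit 3.75% of all genes were lower at that p. Over all genes, in either direction, the number went from 2496 to 2885 without NOR 2.

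Ribosome biogenesis genes were higher under overfeeding. Of 67 genes 58 were higher there (median +0.66), 16 at an unadjusted p under 0.05 where 6.42% of all genes were, against 32 under normal diet (median -0.07). The list mean was 6.63, 5.09, 7.02 and 6.92 on NOR 1, NOR 2, DIO 1 and DIO 2, against 5.46 to 6.32 in the single lines. NOR 2 therefore lay below every single line array and the other 3 lay above. The difference between the diets was higher for 8 genes at an unadjusted p under 0.05, where 2.57% of all genes were, among them emg1 (+2.61) and the RNase MRP and P subunits pop5 (+2.26) and pop4 (+1.87). Over both diets 47 were higher (median +0.33), with pop4 at +2.12 ± 0.45 (6.09, 4.89, 7.21 and 7.64 against 3.83 to 4.78) and the nucleolar GTPase gnl2 at -1.05 ± 0.21. Without NOR 2 the number higher at an unadjusted p under 0.05 went from 10 to 33 and the median to +0.69. In the main fit 8.07% of all genes were higher at that p. Over all genes, in either direction, the number went from 2496 to 2885 without NOR 2. With the germ cell marker mean as a covariate the list median was -0.94 and 21 list genes were lower at an unadjusted p under 0.05. In that refit 1487 of 21124 genes passed in either direction.

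**Figure D4:**
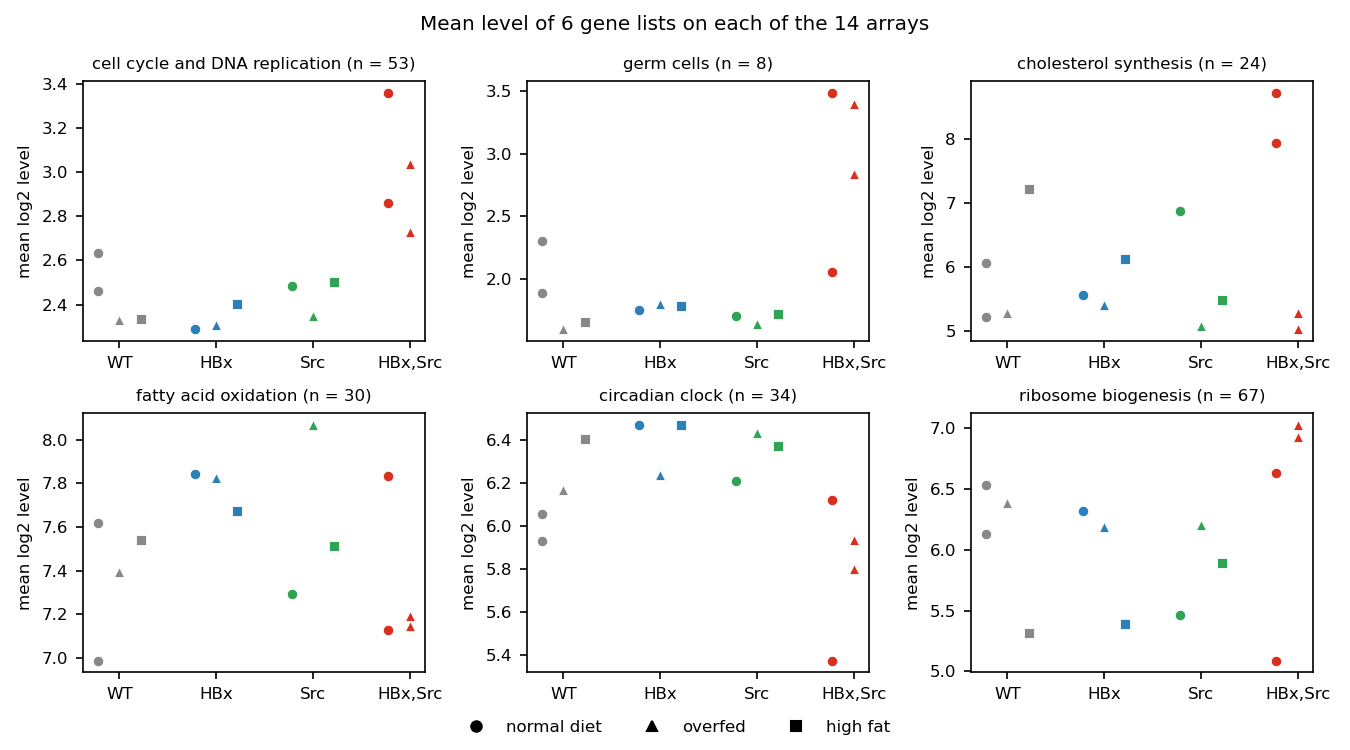
Mean log2 level of 6 gene lists (vertical axis) on each of the 14 arrays, with genotypes on the horizontal axis, colour giving the genotype and shape the diet. In the cell cycle list the 4 HBx,Src(p53-) arrays lie at 2.73 to 3.36, above the single lines at 2.29 to 2.48, and in the ribosome biogenesis list NOR 2 lies at 5.09, apart from the other 3.

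**Figure D5:**
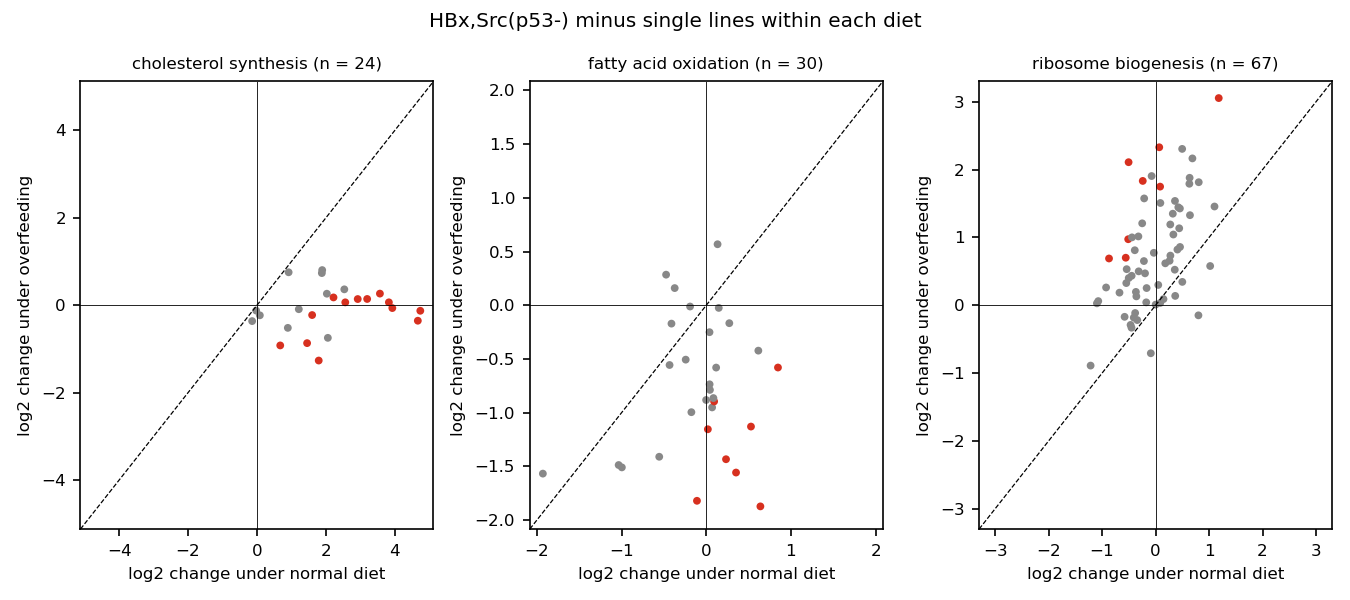
Log2 change of HBx,Src(p53-) against the single lines under normal diet (horizontal axis) and under overfeeding (vertical axis), 1 point per gene of 3 lists. Red points have an unadjusted p under 0.05 for the difference between the diets, and the dashed line marks equal changes. The 24 cholesterol synthesis genes lie below that line, while the ribosome biogenesis genes lie mostly above it.

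The comparison was also made with each single line. Both use the same 4 HBx,Src(p53-) arrays, so their values are set side by side and are not independent. Against HBx(p53-) limma called 0 genes (0%), with 1314 higher (6.22%) and 781 lower (3.7%) at an unadjusted p under 0.05, and without NOR 2 the count became 62. Against Src(p53-) it called 4 (0.0189%), with 1105 higher (5.23%) and 743 lower (3.52%), and without NOR 2 the count became 71. The 4 genes were zgc:171534, zgc:171470 and crp, which fell, and si:ch211-194p6.12, which rose. The fall of crp was 4.38 against HBx(p53-), not called there, and 5.72 against Src(p53-). The cell cycle list had 47 of 53 members higher against HBx(p53-) (median +0.56) and 46 against Src(p53-) (median +0.46).

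The gene zgc:171534 dropped by 6.11 relative to Src(p53-) (limma adjusted p = 0.000511). It stood at 8.51 and 8.70 on the NOR and DIO arrays of Src(p53-) and at 2.31 to 2.68 in HBx,Src(p53-), and also at 2.25 and 1.83 in HBx(p53-). The Src(p53-) and WT high fat arrays were at 9.21 and 9.22, while the other WT arrays were at 1.84 to 2.1. The gene zgc:171470 dropped by 6.30 (limma adjusted p = 0.00177), with levels of 8.41 and 8.08 in Src(p53-) against 1.38 to 2.32 in HBx,Src(p53-). It was as low in HBx(p53-), at 1.95 and 1.73, and 7.07 to 9.62 in WT. In both genes HBx,Src(p53-) was level with HBx(p53-), so they were not among the genes that set both transgenes apart from each single line. Without the Src(p53-) overfed array limma called 0 genes against Src(p53-).

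Of the genes next in rank against Src(p53-), the complement C1 inhibitor serping1 was +1.71, lysmd1 +1.99, pcna +2.21 and fhl1b -2.04. The serping1 level in HBx(p53-), 11.00 and 10.96, was close to that in HBx,Src(p53-), 11.05 to 11.23. Against HBx(p53-) the gene with the lowest p was si:ch211-194p6.12 (+4.36, limma adjusted p = 0.0579), and the genes next in rank beside crp were itln3 (+2.67), the membrane protein gene pllp (+2.65), lamtor5 (+2.20), crp1 (-4.36), tmem276a (-2.68) and pcolce2b (-3.52), an enhancer of procollagen processing, none of them called. The pllp level in Src(p53-), 5.78 and 6.12, lay between HBx(p53-), 4.25 and 4.46, and HBx,Src(p53-), 6.65 to 7.50. For the exocrine pancreas markers the median was -0.06 against HBx(p53-) and +1.28 against Src(p53-), with 10 of 16 higher at an unadjusted p under 0.05 in the second, where 5.23% of all genes were.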

How the data were processed

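Liver RNA was hybridised to ZebGene 1.1 ST arrays. The deposited values are log2 levels per probe set, which the authors made by robust multi-array averaging (RMA) with the oligo package, with quantile normalization over all arrays. RMA evens out the distributions of the arrays, which hides changes in total RNA, and it understates differences of dim probe sets. Tool versions, scan dates, plate positions and the probe sets' genome build are not given in the sources used here, so no batch was tested and no coordinates are reported. The number of arrays limits the precision.

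Of 75212 probe sets, 30358 had 1 gene symbol, 1015 several and 43839 none in the platform annotation. They gave 21124 genes, 19501 named through Entrez identifiers in RefSeq (GRCz12tu) and 934 by a symbol not found there. The brightest probe set stood for each of 6365 genes with several. Gene spans came from GRCz12tu and covered 95.6% of genes.

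The main test was limma 3.58.1 (R 4.3.3; lmFit, eBayes, Benjamini-Hochberg over all genes) on 8 arrays with side and diet (5 residual degrees of freedom). Comparisons with each line used genotype and diet, and those within a diet used cell means (4 each). Groups with 1 array shared the spread of the other groups. The script was tested on simulated data. The text names the 12 genes with the most positive and the 12 with the most negative moderated t in the main comparison, 4 of each in the other comparisons, and up to 4 members of each list by p. Other members named for their role were picked after their values were seen. The members compared, the 40 gene lists and the tests were chosen with earlier results of these data known, and 960 list entries were measured. Samples 1 and 2 of HBx,Src(p53-) share only a number. No sequences are printed.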

Additional observations from a re-analysis of the deposited data

Results flagged for a closer look

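Sets of 4 arrays in which the highest or lowest array stood far from the rest were sought with Dixon's ratio (the gap to the nearest array over the whole range) in 130 sets of gene levels and list means, where chance flags about 1 in 20. In HBx,Src(p53-) the ratio was 0.834 for rnasekb, with DIO 2 high, and 0.837 for src, with DIO 1 low. It was 0.913 for the mean of the Notch and Wnt targets, with NOR 1 high, and 0.905 for that of fatty acid oxidation, with NOR 2 high. In the single lines it was 0.865 for rnasekb, with the Src(p53-) overfed array high. Among their list means it was 0.922 for the HBx partner proteins and 0.929 for the intestinal markers, with HBx(p53-) NOR low in both, and 0.851 for the oxidative stress response, with HBx(p53-) NOR high. With Src(p53-) NOR apart it was 0.859 for the liver cancer and progenitor genes (low), 0.842 for ribosome biogenesis (low) and 0.835 for protein processing in the endoplasmic reticulum (high).

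The high fat arrays of the single lines were outside the comparison. On 4 occasions such an array lay on the HBx,Src(p53-) side of a leading gene. On the Src(p53-) high fat array cishb stood at 5.295, itln3 at 8.475 and per2 at 5.716, and on the HBx(p53-) high fat array crp stood at 4.111.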

How the results depend on the processing

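The count of called genes in the main comparison, 2, depended on the fit. It was 4 with genotype at 3 levels or with trend and robust moderation, 5 with no diet term, 79 with all 14 arrays and 11 without genes of a mean under 4. It was 1 with 4 cell means, with the high fat arrays added, with the mean of all probe sets or with the exocrine pancreas mean as a covariate, and 0 with the germ cell mean as a covariate. With the sample number of HBx,Src(p53-) as a replicate block it was 47; sample 1 minus sample 2 correlated at 0.128 between the diets over only 2 pairs, so the numbers were not taken to pair the fish. A fold over 2 with an unadjusted p under 0.05 gave 847 genes, 638 higher and 209 lower. The study stated a rule of fold and p for overfed against control fish, and fold change alone for the gene counts it reported. The count of called genes was 3 with array weights and 2 with quantile normalization again or median centring. Leaving out 1 array in turn gave 1 to 186, the highest without HBx,Src(p53-) NOR 2. Against HBx(p53-) the count of 0 became 3 without genes of a mean under 4 and ranged from 0 to 62 on leaving out an array. Against Src(p53-) the count of 4 became 2 without such genes, as zgc:171534 and zgc:171470 were themselves left out, and ranged from 0 to 71. Under normal diet it ranged from 0 to 91. Under overfeeding the count of 1 became 0 without genes of a mean under 4, as zgc:63972 was itself left out, and ranged from 0 to 58. The difference between the diets gave 0 in all alternatives. Over 25 genes and 548 alternatives, direction and side of the threshold held in 487, a call was lost in 13 and gained in 44, and 4 reversed. These were all src, which went from -0.06 to +0.32 with the germ cell mean and +0.12 with the exocrine pancreas mean as a covariate, and ranged from -0.46 to +0.45 on leaving out an array. Where an alternative moved a count, the cause was not tested. Dim genes, such as most of the cell cycle list, are the least certain.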

Other observations

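Gene families that were looked at after their values were seen are given as a description. All 18 genes of the zp2 and zp3 families of egg coat proteins were higher in HBx,Src(p53-), with a median of +2.11, and their mean was 4.95, 2.71, 4.67 and 4.12 on NOR 1, NOR 2, DIO 1 and DIO 2, against 1.73 to 2.03 on the single line arrays and 2.79 on WT normal 2. Proteins of the mitochondrial ribosome were higher in 54 of 67 (median +0.39). At an unadjusted p under 0.05, 16 were higher and 1 lower, where 8.07% of all genes were higher and 3.75% lower. Their mean was 6.05, 5.70, 6.05 and 5.82 against 5.45 to 5.64. Every HBx,Src(p53-) array thus had a higher mean than every single line array, and WT normal 2 (5.99) was as high. Those of the cytosolic ribosome were higher in 41 of 78 (median +0.02). Splicing snRNP and Lsm proteins were higher in 22 of 26 (median +0.50), with a mean of 4.79, 4.56, 4.98 and 4.66 against 3.92 to 4.64 and 4.97 on WT normal 2. Genes of the Arp2/3 complex, actin and its capping proteins, which build the cell cortex, were higher in 15 of 17 (median +0.47), with a mean of 6.04, 6.32, 5.81 and 5.87 against 5.39 to 5.72. UDP-glucuronosyltransferases, which conjugate bilirubin and drugs, were higher in 15 of 23 (median +0.35), and subunits of respiratory complex I in 29 of 49 (median +0.12) and of the V-ATPase in 13 of 21.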
